A study of Mus musculus with 6 samples.

Results

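The presynaptic active zone scaffold was followed through 10 genes, *Bsn*, *Pclo*, *Rims1*, *Rims2*, *Rims3*, *Erc1*, *Erc2*, *Ppfia3*, *Rimbp2* and *Unc13a*, which were taken by symbol from the 55357 genes counted in 6 RNA-seq libraries of mouse primary neurons. The neurons came from the cortex and hippocampus of embryonic C57BL/6N mice and carried the wild type genotype in all libraries. At DIV4 they received lentiviral particles with either a control or scrambled shRNA (shCtrl, n = 3) or an shRNA against *Pla2g4e* (sh*Pla2g4e*, n = 3), and they were collected at DIV14. *Pla2g4e* encodes an N-acyltransferase that makes the lipid precursors of N-acylethanolamines. Silencing rested on 1 shRNA sequence, sh2, at a virus dose set to lower the transcript only in part, so that silencing of *Pla2g4e* and other effects of this sequence cannot be told apart.

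The active zone is the patch of presynaptic membrane where synaptic vesicles dock and fuse. Bassoon and Piccolo, encoded by *Bsn* and *Pclo*, are giant proteins that span the scaffold. RIM, RIM-binding proteins, ELKS and liprin-α form its core and tether calcium channels close to docked vesicles, and Munc13 proteins make the vesicles ready for fusion. Most of these proteins belong to small families whose members can stand in for each other in part, and the comparison asked which members of each family differed between shCtrl and sh*Pla2g4e* neurons.

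Between 20387986 and 22561667 reads were counted per shCtrl library and between 17054717 and 23570180 per sh*Pla2g4e* library. A scaffold gene held from 1551 reads (*Erc1*) to 18277 reads (*Bsn*) in a library. Levels are read counts scaled to CPM by library size and by TMM factors, which adjust for differences in composition between libraries. *Pla2g4e* itself stood at 38.0, 35.1 and 35.4 CPM in shCtrl replicates 1 to 3 and at 21.8, 14.1 and 18.7 CPM in sh*Pla2g4e* replicates 1 to 3, which left 50.5% of the shCtrl level (log2 fold change −0.99, SE 0.13, adjusted p = 0.000124 by edgeR). Nothing in the labels says that libraries of a group were separate cultures, so that p-values measure the spread between these libraries, which may be technical.

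All 10 scaffold genes had lower mean levels in sh*Pla2g4e* than in shCtrl, and 4 of them, *Bsn*, *Rims1*, *Erc1* and *Ppfia3*, fell at the threshold (adjusted p under 0.01 by edgeR's quasi-likelihood test, adjusted over the 21876 genes tested). Of all genes tested, 4.00% were down-regulated and 2.48% up-regulated at this threshold, and the share down-regulated was 7.66% of the genes with a mean level of at least 3 on the log2 CPM scale, where all 10 scaffold genes lay. The median log2 fold change of the 10 genes was −0.34, beside 0.03 over all genes tested and −0.02 over genes at that level. With the replicate number as a block, since libraries with the same number deviated together, 7 of the 10 genes fell and none rose, beside 9.02% and 6.50% of all genes tested. The 3 genes gained were *Erc2*, *Rimbp2* and *Unc13a*. The block leaves fewer degrees of freedom among the 6 libraries, so its p-values rest more on the spread pooled over all genes. For *Bsn*, at a log2 fold change of −1.14 in both edgeR fits, the adjusted p went from 4.73e-06 to 1.19e-22. In 7 of the 10 genes the libraries of the groups did not overlap, as in 30.0% of all genes tested.

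**Figure D1:**
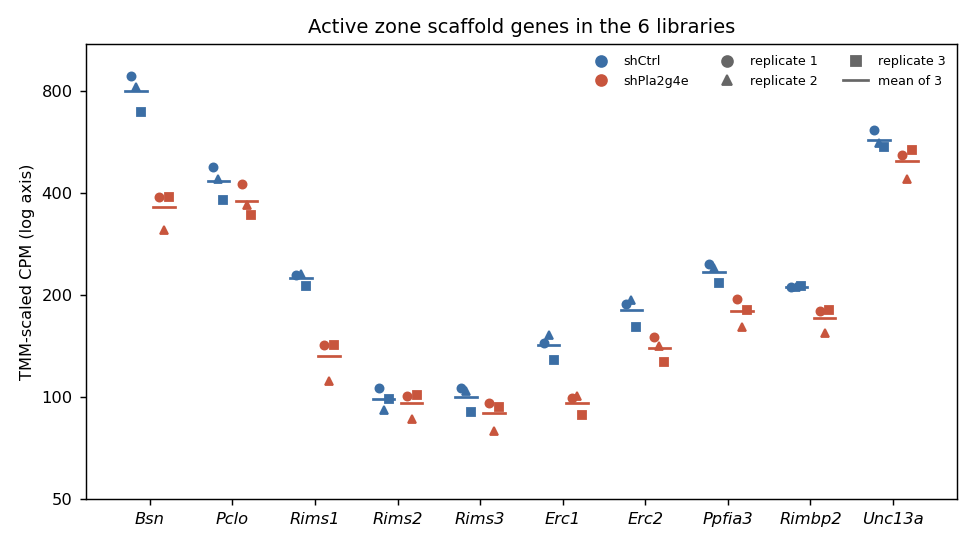
TMM-scaled CPM on a log axis of the 10 scaffold genes, with 1 point per library (blue shCtrl, red sh*Pla2g4e*; circle, triangle and square are replicates 1, 2 and 3) and a line at the mean of 3. *Bsn* lies between 694 and 887 CPM in shCtrl and between 312 and 390.0 CPM in sh*Pla2g4e*, whereas the points of *Pclo*, *Rims2* and *Rims3* overlap between the groups.

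The sequences printed next are those of sh2 and of matches to it. A guide strand can also lower transcripts that match only its seed, the bases at positions 2 to 8 from its 5′ end. The sh2 target lies in the coding sequence of *Pla2g4e*, in exon 11 of transcript ENSMUST00000090071, at chr2:120182753-120182771 on the minus strand of GRCm38. The target and the guide are printed 5′ to 3′, with the seed of the guide and the stretch it pairs with in capitals.
sh2 target in *Pla2g4e*: ggaagatggtgGTGGCCAa
sh2 guide: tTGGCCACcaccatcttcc

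The stretch GTGGCCA was searched on the sense strand of the longest coding transcript of each gene (GENCODE vM21, GRCm38). It occurred in the 3′ UTR of 3 of the 10 scaffold genes, *Bsn*, *Rims1* and *Rims3*, and in that of 13.4% of the 15656 tested genes with such a transcript. The 19 bases at each of these sites are printed with the stretch in capitals, to show how far they resemble the target.
*Bsn*, exon 12 of 12, chr9:108099450-108099468, minus strand: cggatccctgtGTGGCCAt
*Bsn*, exon 12 of 12, chr9:108096306-108096324, minus strand: cctagagagtgGTGGCCAt
*Rims1*, exon 37 of 37, chr1:22286382-22286400, minus strand: gttctgtcttaGTGGCCAa
*Rims3*, exon 8 of 8, chr4:120891840-120891858, plus strand: aaataggggatGTGGCCAc

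Bassoon and Piccolo are structurally related, and their transcripts differed in response. *Bsn* (ENSMUSG00000032589, chr9:107973221-108067583, GRCm39) stood at 887, 821 and 694 CPM in shCtrl and at 390.0, 312 and 389 CPM in sh*Pla2g4e*. Every sh*Pla2g4e* library lay below every shCtrl library, and 45.4% of the level was left (log2 fold change −1.14, SE 0.11, adjusted p = 4.73e-06). *Pclo* stood at 477, 439 and 381 CPM in shCtrl and at 426, 369 and 344 CPM in sh*Pla2g4e*, with overlapping groups. Its log2 fold change was −0.19 with a 95% interval of −0.40 to 0.02 (adjusted p = 0.251, or 0.0167 with the replicate block), so that a fall of the size seen for *Bsn* lay outside the interval.

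The summed level of the 10 genes was 2997 ± 236 CPM (SD, n = 3) in shCtrl and 2143 ± 174 CPM in sh*Pla2g4e*, 28.5% lower. *Bsn* made up 51.2% of this difference, which is in reads and therefore weighs long and abundant transcripts more. Without *Bsn*, the other 9 genes summed to between 2047 and 2320 CPM in shCtrl and between 1642 and 1904 CPM in sh*Pla2g4e*, 19% lower on average, again without overlap.

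The full-length RIM proteins bind Rab3 and calcium channels in the core of the scaffold. Among the RIM genes, *Rims1* stood at 229, 231 and 213 CPM in shCtrl and at 142, 112 and 143 CPM in sh*Pla2g4e*. The groups were far apart, and *Rims1* fell to 58.9% of its shCtrl level (log2 fold change −0.76, SE 0.10, adjusted p = 6.52e-05). *Rims2*, which encodes the other full-length RIM, stood at 106, 91.5 and 98.4 CPM in shCtrl and at 101, 86.2 and 101 CPM in sh*Pla2g4e*. These groups overlapped (log2 fold change −0.04, 95% interval −0.23 to 0.15, adjusted p = 0.832), and the sign of the *Rims2* value turned positive with scaling by library size alone. *Rims3*, which encodes a short RIM that has only the last C2 domain, stood at 106, 104 and 90.2 CPM in shCtrl and at 96.0, 79.3 and 93.4 CPM in sh*Pla2g4e*. The groups overlapped here too (log2 fold change −0.16, 95% interval −0.36 to 0.04, adjusted p = 0.307).

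RIM-binding proteins link RIM to calcium channels. *Rimbp2* was the steadiest of the 10 genes in shCtrl, at 210.4, 210.5 and 213 CPM, and stood at 179, 154 and 180.3 CPM in sh*Pla2g4e*. The groups did not overlap, and 81.0% of the level was left (log2 fold change −0.30, SE 0.08). The difference missed the threshold (adjusted p = 0.0210) and passed it with the replicate block (adjusted p = 0.000132), with DESeq2 (0.00309) and with no filter on low counts (0.00682).

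The ELKS proteins, encoded by *Erc1* and *Erc2*, bind RIM, liprin-α and Bassoon. *Erc1* stood at 144, 153 and 129 CPM in shCtrl and at 99.0, 100.4 and 88.6 CPM in sh*Pla2g4e*, without overlap, and fell to 67.7% of its shCtrl level (log2 fold change −0.56, SE 0.09, adjusted p = 0.000425). Exons of a gene on the other strand overlap 11.8% of the exon bases of *Erc1*, the largest such share among the 10 genes, and the counting record gives no strand option. *Erc2*, whose product is known as CAST, stood at 188, 193 and 161 CPM in shCtrl and at 150.0, 142 and 127 CPM in sh*Pla2g4e*. Its groups did not overlap either, and its log2 fold change of −0.37 (SE 0.09) missed the threshold (adjusted p = 0.0127) and passed it with the replicate block (adjusted p = 4.8e-06), with DESeq2 (0.00160), with no filter on low counts (0.000483) and without shCtrl replicate 3 (0.00341).

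Liprin-α proteins recruit the scaffold to new presynaptic sites, and *Ppfia3* encodes the liprin-α3 form. It stood at 247, 240.2 and 216 CPM in shCtrl and at 195, 161 and 181 CPM in sh*Pla2g4e*, without overlap, and fell to 76.4% of its shCtrl level (log2 fold change −0.39, SE 0.09, adjusted p = 0.00777). Of the 4 genes that fell, *Ppfia3* lay closest to the threshold. It missed the threshold when a library other than shCtrl replicate 3 was left out (adjusted p from 0.0103 to 0.0538 over those 5 libraries), whereas *Bsn*, *Rims1* and *Erc1* passed whichever library was left out.

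*Unc13a* encodes Munc13-1, the main priming factor of glutamatergic vesicles. It stood at 612, 559 and 546 CPM in shCtrl and at 517, 438 and 534 CPM in sh*Pla2g4e*. The groups did not overlap but nearly met, at 546 CPM in the lowest shCtrl and 534 CPM in the highest sh*Pla2g4e* library. The log2 fold change of *Unc13a* was −0.21 with a 95% interval of −0.39 to −0.02 (adjusted p = 0.157, or 0.00831 with the replicate block).

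The libraries of a group were not ordered alike in every gene, but the same libraries often held the extremes. In shCtrl, replicate 3 was the lowest library for 8 of the 10 genes and replicate 1 the highest for 6. In sh*Pla2g4e*, replicate 2 was the lowest for 7 and replicate 1 the highest for 5. *Pla2g4e* was also lowest in sh*Pla2g4e* replicate 2. Mitochondrial transcripts took 3.62% of reads in shCtrl replicate 3, beside 2.75% and 2.89% in the other shCtrl libraries, and 3.08% to 3.79% in sh*Pla2g4e*, and the part of this difference in the levels of the scaffold genes was not tested.

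The 10 paralogs of these genes that are not among the 10 were chosen by family from a list. Of these paralogs, 3 had lower and 7 higher mean levels in sh*Pla2g4e*, with a median log2 fold change of 0.08, and the signs of *Tspoap1*, *Ppfia2* and *Rims4* turned with the scaling. None fell and 1 rose by edgeR, beside 4.00% and 2.48% of all genes tested. At an unadjusted p under 0.05, 1 was lower and 3 were higher, and at least 5523 of the 21876 genes tested passed that cut in either direction. At the threshold, limma and DESeq2 also gave 0 lower and 1 higher. Over all genes tested, limma called 925 lower and 503 higher, and DESeq2 1214 and 687. *Ppfibp2*, a liprin-β gene, rose from 7.92 ± 1.02 to 13.1 ± 1.72 CPM (SD, n = 3; log2 fold change 0.72, SE 0.15, adjusted p = 0.00497). This call was lost without shCtrl replicate 1 (adjusted p = 0.0211), shCtrl replicate 2 (0.0355) or sh*Pla2g4e* replicate 1 (0.0342). *Unc13b*, which encodes Munc13-2, stood at 130.3, 125 and 118 CPM in shCtrl and at 167, 146 and 140.3 CPM in sh*Pla2g4e*. Every sh*Pla2g4e* library lay above every shCtrl library for *Unc13b*, opposite in sign to *Unc13a*, and its log2 fold change of 0.28 (SE 0.09) missed the threshold (adjusted p = 0.0418) and passed it with the replicate block (0.000858) and with scaling by library size alone (0.00682).

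The other paralogs did not pass in either direction. *Rims4*, a short RIM, stood at 159 ± 23.6 CPM in shCtrl and 159 ± 16.7 CPM in sh*Pla2g4e*, and *Tspoap1*, which encodes RIM-BP1, at 302 ± 21.4 and 301 ± 20.4 CPM. Among the liprin-α genes, *Ppfia1* had a log2 fold change of 0.12, *Ppfia2* of −0.05 and *Ppfia4* of −0.19 (adjusted p = 0.178), the same size as that of *Pclo*, and the liprin-β gene *Ppfibp1* of 0.03. *Unc13c* and *Rimbp3* were scarcely expressed, at 2.73 and 1.45 CPM in shCtrl, with log2 fold changes of 0.22 and 0.89 that did not pass. Exons of a gene on the other strand overlap 22.3% of the exon bases of *Ppfia2*.

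**Figure D2:**
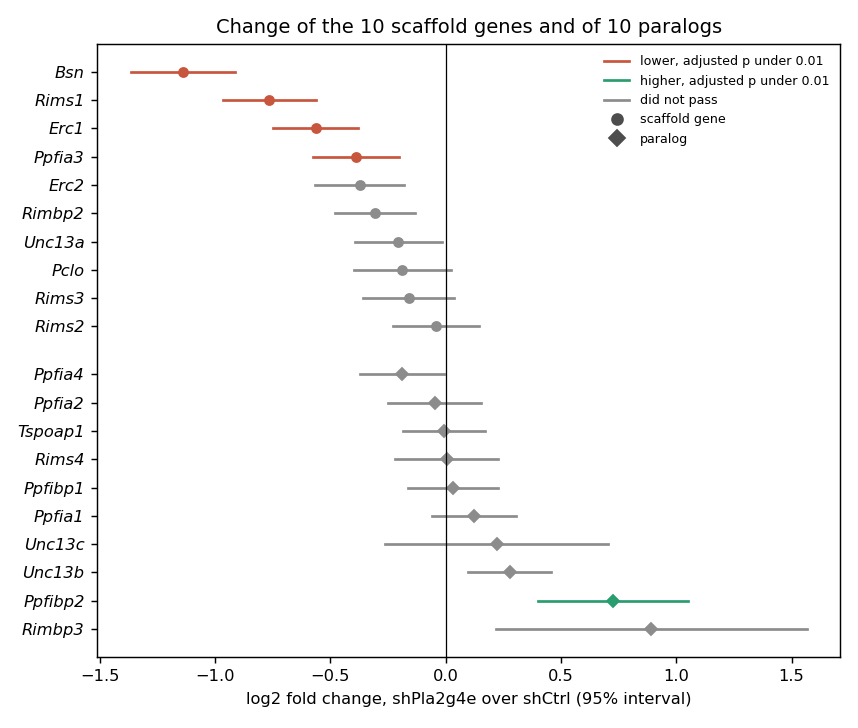
Log2 fold change of sh*Pla2g4e* over shCtrl with its 95% interval, for the 10 scaffold genes (circles) and 10 paralogs (diamonds), coloured by whether the change passed the threshold. *Bsn* at −1.14, *Rims1* at −0.76, *Erc1* at −0.56 and *Ppfia3* at −0.39 are lower past the threshold, and *Ppfibp2* at 0.72 is higher.

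To set paralogs side by side without any scaling between libraries, each gene's share of the reads per kb of exon of its family was computed within each library. *Bsn* took 72.4%, 72.5% and 72.0% of the *Bsn* and *Pclo* reads per kb in shCtrl and 56.3%, 54.3% and 61.4% in sh*Pla2g4e*. The Bassoon share was nearly constant among shCtrl libraries (SD 0.266) and 14.9 percentage points lower on average in sh*Pla2g4e*. Among the 4 RIM genes, *Rims1* took 31.8%, 34.7% and 35.3% in shCtrl and 23.5%, 21.4% and 26.0% in sh*Pla2g4e*. No sh*Pla2g4e* library reached the lowest shCtrl share of *Rims1*, and the share of *Rims4*, whose own level hardly differed, went from 39.0% ± 2.43 (SD, n = 3) to 46.6% ± 4.05.

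The other families shifted less. *Erc1* took 32.0% ± 0.502 of the ELKS reads per kb in shCtrl and 29.2% ± 0.785 in sh*Pla2g4e*, and the 95% intervals of the log2 fold changes of *Erc1* (−0.75 to −0.38) and *Erc2* (−0.57 to −0.18) overlapped. *Ppfia3* went from 38.6% ± 0.415 to 34.1% ± 1.15 of the liprin-α genes, and *Rimbp2* from 43.3% ± 1.53 to 38.1% ± 0.895 of the RIM-binding protein genes. *Unc13a* went from 88.7% ± 0.226 to 84.8% ± 1.56 of the Munc13 genes, and *Unc13b* from 10.7% ± 0.249 to 14.4% ± 1.53. In 14 of the 16 shares compared, over 6 families, the libraries of the groups did not overlap. The 30.0% of all genes tested is for levels of single genes, an unlike measure, and no such figure was computed for shares. For these 14 the exact two-sided permutation test gave p = 0.1, the smallest it can give with 3 libraries against 3 (adjusted p = 0.114). The exceptions were *Rims3* (p = 0.2) and *Ppfia4* (p = 0.4), each by the same exact test. With reads in place of reads per kb, *Ppfia1* (p = 0.2) took the place of *Rims3* among the exceptions to the exact test's smallest p. Shares within a family sum to 100% and are not independent of each other.

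**Figure D3:**
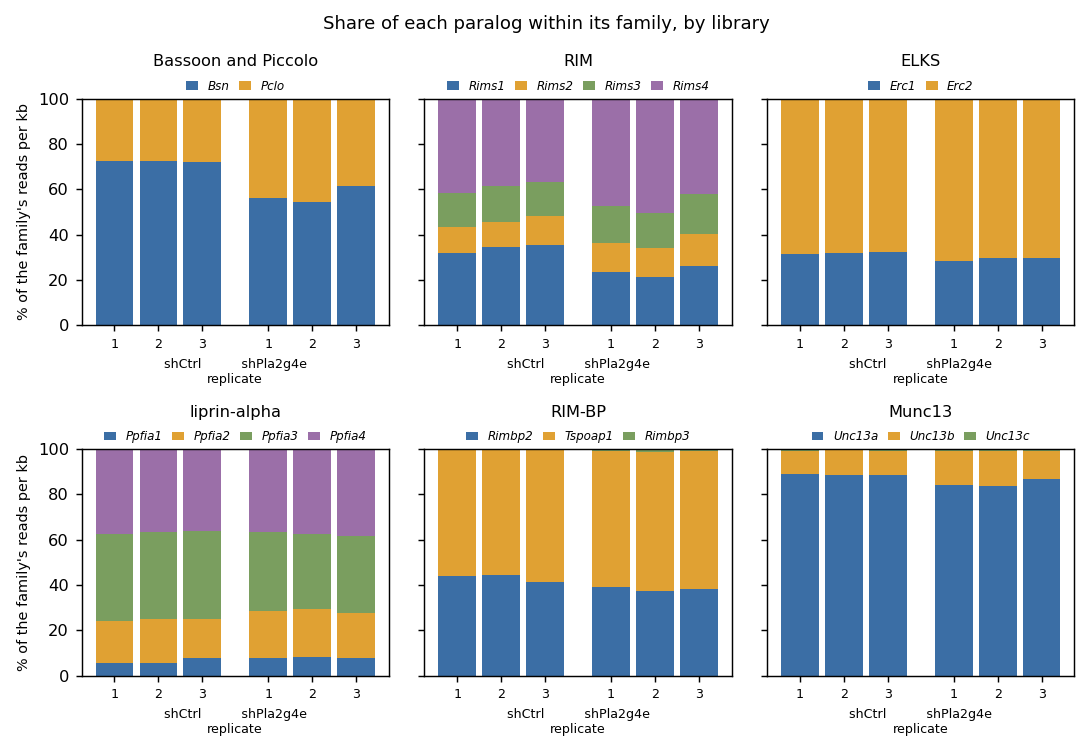
Share of each gene in the summed reads per kb of exon of its family (y axis, percent), as stacked bars with 1 bar per library, for 6 families of active zone genes. The *Bsn* share lies at 72.0% to 72.5% in shCtrl and at 54.3% to 61.4% in sh*Pla2g4e*, and the *Rims1* share at 31.8% to 35.3% and at 21.4% to 26.0%.

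Levels of different genes were compared per kb of exon. In shCtrl, *Bsn* (50.2 ± 6.14 CPM per kb, SD, n = 3) and *Unc13a* (45.4 ± 2.76) led and overlapped. *Ppfia3* (29.7 ± 2.04) and *Rims1* (27.7 ± 1.21) followed and overlapped, and *Rimbp2* stood below them at 24.4 ± 0.152 CPM per kb. *Pclo* (19.3 ± 2.16) and *Erc2* (18.6 ± 1.80) overlapped, *Rims3* stood at 12.6 ± 1.09, and *Rims2* (9.50 ± 0.701) and *Erc1* (8.72 ± 0.741) overlapped at the low end. Even *Erc1* lay at percentile 73.3 of all genes tested by this measure, and *Bsn* at percentile 96.3.

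In sh*Pla2g4e* the order changed at the places of *Bsn* and *Rims1*. *Unc13a* led alone at 39.3 ± 4.04 CPM per kb, *Bsn* at 22.8 ± 2.82 overlapped with *Ppfia3* at 22.7 ± 2.16, and *Rims1* at 16.3 ± 2.19 came after *Pclo* at 16.9 ± 1.87, with overlap. The order also depends on the length used, because annotated exons can be little used. Per kb of the longest coding transcript, chosen as an alternative after seeing the data, shCtrl levels were led by *Unc13a* (55.8 CPM per kb), *Ppfia3* (50.4) and *Bsn* (50.2), and *Rims3* (15.4) was lowest.

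The scaffold acts through partners, which were taken from a list of 35 genes that bind these proteins: calcium channel subunits, Rab3 GTPases, SNARE proteins, receptor phosphatases and adaptors. In sh*Pla2g4e*, 25 of them had lower and 10 higher mean levels; 4 fell and none rose by edgeR, with a median log2 fold change of −0.10. All 35 lay at a mean level of at least 3 on the log2 CPM scale, where 7.66% of genes were down-regulated. At an unadjusted p under 0.05, 11 were lower and 1 was higher, where at least 5523 of the 21876 genes tested passed in either direction. Neither limma nor DESeq2 had 1 partner that rose. Without shCtrl replicate 2, 1 of the 35 fell, and without shCtrl replicate 1 or sh*Pla2g4e* replicate 2, 2 of them did. The 4 were *Cacna1a*, *Cacna1b*, *Git1* and *Stx1a*, and with the replicate block 9 fell and 1 rose, beside 9.02% and 6.50% of all genes tested.

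*Cacna1a* and *Cacna1b* encode the pore subunits of the P/Q-type and N-type calcium channels that trigger release. *Cacna1a* stood at 289, 285 and 284 CPM in shCtrl and at 221, 179 and 226 CPM in sh*Pla2g4e* (log2 fold change −0.45, SE 0.09, adjusted p = 0.00332). *Cacna1b* stood at 240.5, 227 and 222 CPM in shCtrl and at 180.2, 161 and 168 CPM in sh*Pla2g4e* (log2 fold change −0.44, SE 0.08, adjusted p = 0.00143). The shCtrl values of both channels were close together, and no sh*Pla2g4e* library reached them.

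*Git1*, which encodes an Arf GTPase-activating adaptor that binds Piccolo and liprin-α, fell from 248 ± 7.19 to 178 ± 15.7 CPM (SD, n = 3; log2 fold change −0.48, SE 0.08, adjusted p = 0.00110). *Stx1a*, which encodes the plasma membrane SNARE protein syntaxin-1A that Munc13 acts on, fell from 224 ± 15.5 to 170.2 ± 14.7 CPM (log2 fold change −0.40, SE 0.09, adjusted p = 0.00600). Of the partners next in order of p, 3 had lower levels, missed the threshold and passed it with the replicate block. They were *Dynll1* (−0.31, adjusted p = 0.0267, or 0.000238 with the block) and *Dynll2* (−0.27, adjusted p = 0.0574, or 0.000591 with the block), the dynein light chains that bind Bassoon, and *Apba1* (−0.29, adjusted p = 0.0332, or 0.000231 with the block), which encodes the adaptor Mint1. *Dynll1* and *Apba1* also passed with DESeq2 (adjusted p = 0.00743 and 0.00664). *Snap25*, the SNARE partner of syntaxin, had the opposite sign, at 966 ± 42.4 CPM in shCtrl and 1157 ± 81.7 CPM in sh*Pla2g4e* (log2 fold change 0.26, adjusted p = 0.0471, or 0.000353 with the block).

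Matches to the sh2 seed went with lower levels across genes. Among genes with a mean level of at least 3 on the log2 CPM scale, the median log2 fold change was −0.01 for the 8990 genes with no GTGGCCA in the 3′ UTR, −0.16 for the 1403 genes with 1 and −0.26 for the 249 genes with 2 or more. The shares down-regulated were 5.23%, 19.7% and 32.1%. These classes were not matched for 3′ UTR or exon length, and a longer 3′ UTR has more places for a match. The part of length in this trend was not tested. *Bsn*, with 2 sites, and *Rims1*, with 1, lay below the medians of their classes, and *Rims3*, with 1, lay at it. The *Rims1* site is followed by an A in the transcript, which extends the match to 8 bases and was found in the 3′ UTR of 2.7% of the genes; 5 of the 9 annotated coding transcripts of *Rims1* hold the stretch in the 3′ UTR.

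The remaining 7 scaffold genes had no 3′ UTR match in any annotated coding transcript. *Erc1*, *Erc2*, *Ppfia3* and *Rimbp2* had none in the coding sequence either, and their log2 fold changes lay between −0.56 and −0.30. Over the 6705 genes with a mean level of at least 3 and no match in either region, the median was 0.01, and 4.22% were down-regulated. *Pclo* and *Rims2* had 1 match in the coding sequence and *Unc13a* had 2. At least 1 was found in 50% of the scaffold genes, with *Rims1* and *Rims3* the others, and in 25.3% of the tested genes, not matched for length. Over the 2285 genes with a mean level of at least 3, such a match and none in the 3′ UTR, the median log2 fold change was −0.07. Of these genes, 8.18% were down-regulated. The annotated 3′ UTR of the *Rims2* transcript was short, at 176 bases, which limits its search. Beyond the seed, the longest run that a scaffold gene shared with the 19-base target was 11 bases, in *Rims1* and *Unc13a*, and the part of the seed in any single fall was not tested.

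**Figure D4:**
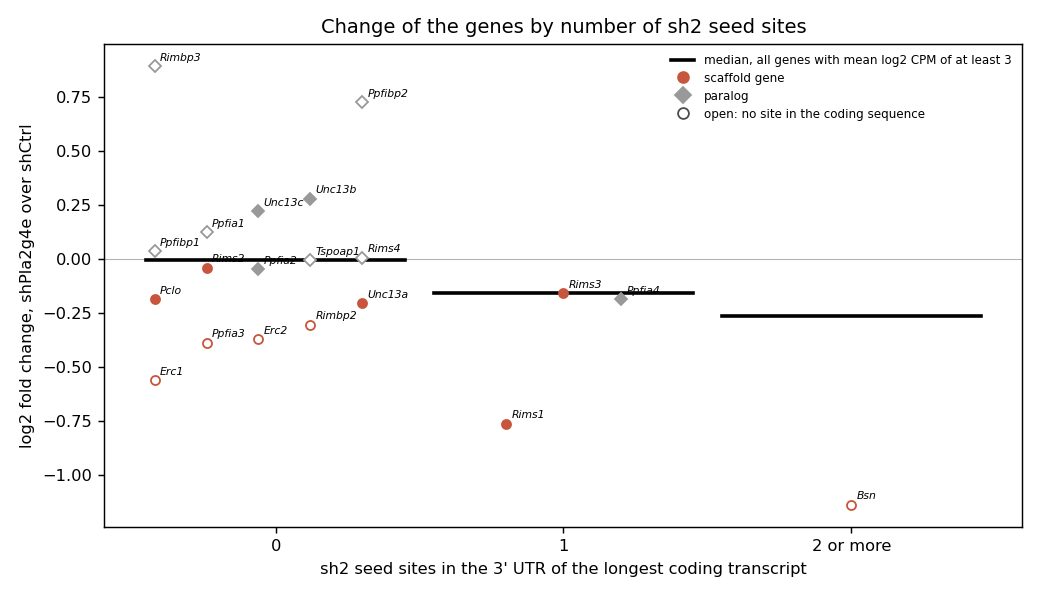
Log2 fold change of sh*Pla2g4e* over shCtrl (y axis) for the scaffold genes (red circles) and paralogs (grey diamonds) by the number of sh2 seed sites in the 3′ UTR (x axis), with filled symbols for genes that also have a site in the coding sequence and black lines at the median of the genes whose mean reached 3 on the log2 CPM scale. *Bsn* with 2 sites is at −1.14 and *Rims1* with 1 site at −0.76, while *Erc1*, with none, is at −0.56.

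The scaffold genes are long, and genes with long exon sequence had lower log2 fold changes than short ones. Genes with a mean level of at least 3 on the log2 CPM scale were split by exon length into 10 bins of equal size. The median log2 fold change went from 0.04 in the shortest bin to −0.05 in the bin that holds *Rims1*, *Rims3* and *Ppfia3*, −0.07 in the bin that holds *Rims2*, *Erc2* and *Rimbp2*, and −0.09 in the longest, which holds *Bsn*, *Pclo*, *Erc1* and *Unc13a*. Of the genes in the longest bin, 11.1% were down-regulated. All 10 scaffold genes but *Rims2* lay below the median of their own bin, and the part of length in their values was not tested. Scaling by library size alone moved the median of all genes from 0.03 to 0.10, and the median of the 10 scaffold genes from −0.34 to −0.26. With that scaling the bin medians went from 0.11 in the shortest bin to 0.02, 0.01 and −0.02 in the bins that hold scaffold genes.

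Markers of the cells in the cultures were read beside the shares of all genes tested, 4.00% down-regulated and 2.48% up-regulated. Of 12 pan-neuronal markers 3 fell (*Tubb3*, *Map2* and *Rbfox3*) and 2 rose (*Nefl* and *Nefm*), and their summed level ranged from 6099 to 6714 CPM in shCtrl and from 5584 to 6054 CPM in sh*Pla2g4e*. Of 7 glutamatergic markers 2 fell and 1 rose (2152 to 2341 and 1606 to 1891 CPM), and of 9 GABAergic markers 2 fell and 1 rose (811 to 885 and 744 to 837 CPM). Of 10 astrocyte markers 3 fell and none rose (2913 to 3738 and 1979 to 3172 CPM), and of 8 proliferation markers 1 fell (33.1 to 57.6 and 19.2 to 32.1 CPM). By edgeR, limma and DESeq2, 0 passed among the microglial (5.49 to 11.3 and 3.42 to 6.63 CPM), oligodendrocyte-lineage (572 to 648 and 588 to 724 CPM) or mural and endothelial markers (27.7 to 71.5 and 32.4 to 77.2 CPM). At an unadjusted p under 0.05 these 3 lists held 3, 1 and 1 genes, of 7, 10 and 7 tested. At least 5523 of the 21876 genes tested passed that cut in either direction. Several of the marker counts rest on single libraries. Without shCtrl replicate 2, 1 pan-neuronal marker fell and 1 rose, 1 glutamatergic marker fell and 0 rose, and 0 proliferation markers fell. The glutamatergic rise was also lost without shCtrl replicate 3 or sh*Pla2g4e* replicates 1 or 2, and the proliferation fall without the same libraries. Without sh*Pla2g4e* replicate 2, 1 glutamatergic and 1 astrocyte marker fell; 1 astrocyte marker fell without sh*Pla2g4e* replicate 1 and 6 without replicate 3. DESeq2 gave no glutamatergic marker that rose, 3 that fell, 2 astrocyte markers and 2 proliferation markers that fell. With the replicate block, where 9.02% of all genes fell and 6.50% rose, 4 pan-neuronal markers fell and 3 rose, 7 astrocyte markers fell and 1 rose, 3 glutamatergic and 3 GABAergic markers fell and 2 of each rose, 2 proliferation markers fell, and 1 oligodendrocyte-lineage marker fell and 1 endothelial marker rose. Of the presynaptic genes in the pan-neuronal list, *Syn1* had a log2 fold change of −0.04, or 0.04 with scaling by library size alone. *Syt1* was at −0.16 and *Snap25* at 0.26, and none of them passed the threshold in the main edgeR test. In bulk cultures, fewer cells of a type and less RNA per cell cannot be told apart, and the part of the marker levels in the values of the scaffold genes was not tested.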

How the data were processed

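The 6 libraries of polyA RNA, prepared with a stranded kit, were sequenced by the authors. The authors aligned reads with STAR 2.7.0d, counted them on exons with featureCounts 1.6.0 and deposited raw counts per gene, unnormalised; GRCm39 is the build in the file headers and the labels, while the study's methods name mm10. The counting record holds no strand or read-pair option, so reads of overlapping genes on the other strand can add to a gene. Symbols matched 52081 of 55357 gene identifiers. The scaffold genes and all lists were chosen with earlier results of these data known.

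Groups were taken from the labels. Counts were tested with edgeR 4.0.16 (TMM, quasi-likelihood F test, at least 6 reads in at least 1 library, Benjamini-Hochberg over 21876 genes, threshold 0.01), in R 4.3.3, after the script was tested on simulated data. SE is the log2 fold change over the root of F. The genes named were the 10 members, *Pla2g4e*, all paralogs, the 8 partners with the smallest p, and markers where a result turned on them. The presynaptic genes among the pan-neuronal markers were named too. Family shares were tested with exact permutations. Seed sites were read from GENCODE vM21 transcripts (GRCm38) with the shRNA sequence in the study's supplement.

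Replicate numbers were taken as pairs in the block alternative alone, and the main edgeR test and the exact permutations took the libraries as unpaired. Over 10908 genes, the libraries' distances from their group mean correlated at 0.392, 0.189 and 0.461 for equal numbers. For other numbers the correlation was −0.393 to 0.108, and the labels do not say what a number marks. Alternatives were limma 3.58.1 after voom, DESeq2 1.42.0, other scalings and filters, the replicate block and leaving out each library.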

Additional observations from a re-analysis of the deposited data

How the results depend on the processing

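The count of scaffold genes that fell was 4 and lay between 3 and 5 when a library was left out; with the replicate block it was 7, and with DESeq2 or no filter it was 6, with *Erc2* and *Rimbp2* added. *Bsn*, *Rims1* and *Erc1* passed under all of these. Calls over all genes were also more with DESeq2, at 1214 lower and 687 higher, against 876 and 543 in the main edgeR test. *Ppfia3* also missed the threshold with upper-quartile scaling (adjusted p = 0.0131), library size alone (0.0139), at least 10 reads in every library (0.0115) and edgeR's own expression filter (0.0105). *Rims2* turned to a log2 fold change of 0.0328 with library size alone, and ranged from −0.0927 to 0.0299 with a library left out, positive without shCtrl replicate 1 (0.0136) or sh*Pla2g4e* replicate 2. Genes near 0 also turned: *Rims4* to −0.00362 with DESeq2 and −0.00335 with its size factors (−0.0974 to 0.118 with a library left out), *Tspoap1* to 0.0274 with upper-quartile scaling, 0.0648 with library size alone, 0.0111 with at least 10 reads in every library and 0.00401 with edgeR's own expression filter (−0.0542 to 0.0521), *Ppfia2* to 0.0281 with library size alone (−0.153 to 0.00789), *Ppfibp1* with a library left out (−0.0730 to 0.0876) and *Syn1* to 0.0363 with library size alone (−0.141 to 0.0479). The cause was not tested.

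*Stx1a* missed the threshold with upper-quartile scaling (adjusted p = 0.0105) and library size alone (0.0109), and *Cacna1a*, *Cacna1b*, *Stx1a*, *Map2*, *Rbfox3* and *Nefl* missed it without at least 1 of the libraries. The paralogs that rose numbered 2 at adjusted p under 0.05, with library size alone and with the replicate block, and 0 to 1 with a library left out. The partners that fell numbered 9 with the block and 1 to 4 with a library left out, and 1 partner rose at adjusted p under 0.05, with library size alone and with the block. Over all genes, 1599 fell and 1214 rose at adjusted p under 0.05, 1360 and 989 without a filter, and 1973 and 1422 with the block, against 449 to 932 and 246 to 681 with a library left out, where fewer samples were fitted. With library size alone, 43.3% of the calls were lower, against 61.7%. Of the marker counts, with a library left out pan-neuronal markers that fell numbered 1 to 4 and those that rose 1 to 2, glutamatergic 1 to 3 and 0 to 1, astrocyte 1 to 6 and 0 to 1, proliferation 0 to 2 that fell, and oligodendrocyte-lineage 0 to 1 that rose. The glutamatergic markers that rose numbered 2 at adjusted p under 0.05, without a filter and with the block, and 0 with DESeq2; GABAergic 2 without a filter and with the block; astrocyte 1 at adjusted p under 0.05, without a filter and with the block, with 7 that fell under the block. The proliferation markers that fell numbered 2 at adjusted p under 0.05, with DESeq2, without a filter and with the block, and 0 with library size alone and both stricter filters. Without a filter 1 oligodendrocyte-lineage marker fell and 1 rose, and 1 mural or endothelial marker rose; with the block 1 fell and 1 rose. 3′ UTR sites of 8 bases in place of 7 left 1 scaffold gene with a site. The block changed no other call among the genes named than those printed. Low depth limits *Rimbp3*, *Unc13c* and *Ppfibp2*, at under 10 CPM in shCtrl.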
